A study of Homo sapiens with 12 samples.

Results

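The genes of the cyclin-dependent kinase inhibitors of the CIP/KIP and INK4 families were examined in human mammary epithelial cells with and without p53. The 7 genes were taken from the expression table by their symbols: CDKN1A, CDKN1B and CDKN1C of the CIP/KIP family (3 genes) and CDKN2A, CDKN2B, CDKN2C and CDKN2D of the INK4 family (4 genes), out of 22324 gene symbols used. Of the 7, 5 had a value above 0 somewhere, and 4 passed the filter on low values that decided which genes were tested.

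Cyclin-dependent kinases drive the cell cycle when bound to cyclins, and both families hold them back. CIP/KIP proteins bind assembled cyclin-kinase complexes and block mainly those of CDK2. INK4 proteins bind the kinases CDK4 and CDK6 themselves and keep D-type cyclins from activating them. The CDKN1A product p21 is the textbook link from p53 to cell cycle arrest, since p53 binds response elements upstream of the gene and activates its transcription.

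MCF10A is an established, non-tumorigenic line of human mammary epithelial cells, grown in a medium with horse serum, insulin, EGF, hydrocortisone and cholera toxin and used below passage 20. RNA-seq was done on 12 libraries: 4 of the p53 KO clone KO313, 4 of the p53 KO clone KO414 and 4 of WT MCF10A cells. Each KO line is 1 clone, picked after CRISPR-Cas9 editing with its own pair of guide RNAs, so what is peculiar to a clone cannot be told apart from the effect of p53 loss within that clone. The methods of the study name biological repeats but not whether these were separate cultures, and the p-values measure the spread between these libraries only. Neither the labels nor the methods name a batch.

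Levels are given in RPKM, read numbers scaled to gene length and library size, as deposited. The authors' values per library summed to 291429 to 329224 RPKM, highest in KO414 replicate 1. The deposited table gives no read counts, so the sequencing depth behind a value is unknown. Markers of mammary epithelium were present, with 7 of 7 genes past the filter and KRT5 the highest, and their summed level was 1285 to 1464 RPKM in KO313 and 1218 to 1342 RPKM in KO414, against 1762 to 2018 RPKM in WT. Immune and endothelial markers summed to at most 0.0371 RPKM in KO313 and 0.0170 RPKM in KO414, against 0.219 to 0.307 RPKM in WT, with 0 of 7 past the filter. Fibroblast markers summed to 3.80 to 4.01 RPKM in KO313 and 3.25 to 4.00 RPKM in KO414, against 3.56 to 4.07 RPKM in WT, and 1 of 5 (PDGFRA) passed the filter. No marker of the 3 lists was at 0 in all 12 libraries. The epithelial and the immune and endothelial sums were lower in every KO library than in every WT library. KRT5 averaged 1107 RPKM over all libraries, so the epithelial sum does not speak for each of its genes. TP63, also of that list, was higher, with 8.95 RPKM in p53 KO and 6.30 RPKM in WT. The part of these markers in the results for the inhibitors was not tested.

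The test was limma, a linear model fitted to log2(RPKM + 0.5) across all 12215 genes that passed the filter (at least 0.5 RPKM in at least 4 libraries), with Benjamini-Hochberg adjustment. A gene was said to have risen or fallen where its adjusted p was under 0.05.

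p53 KO cells had far less CDKN1A mRNA than WT cells, somewhat less CDKN1B and more CDKN2C, and CDKN1C, too low for the main test, was also lower. When the 8 p53 KO libraries were compared with the 4 WT libraries, 3 of the 4 inhibitor genes tested passed, against 29.6% of all genes tested. Of these, 1 (CDKN2C) rose, where 15.6% of all genes rose, and 2 (CDKN1A and CDKN1B) fell, where 14.0% of all genes fell. Only CDKN1A also passed a fold change of 2, as 1.29% of all genes did in the lower direction. The median log2 change of the 4 genes was -0.01, beside 0.01 for all genes tested.

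CDKN1A was the most abundant of the inhibitors in every library. Its level was 25.5, 28.3, 32.0 and 32.3 RPKM in KO313 and 35.6, 25.4, 34.0 and 32.7 RPKM in KO414, against 258, 228, 272 and 238 RPKM in WT. All 8 KO libraries lay far below the lowest WT library, and the ranges of the clones overlapped. Over all p53 KO libraries the log2 change was -3.00 ± 0.09 (SE, limma, adjusted p = 2.38e-11), and the ratio of the means was 8.10-fold lower in p53 KO. Among all tested genes, 9.74% had p53 KO libraries that all lay below the WT libraries. In bulk RNA fewer expressing cells and less RNA per cell cannot be told apart. CDKN1A transcripts were still readily measured without p53. By mean level CDKN1A ranked 1817 of the 17366 genes above 0 in KO313 and 1690 of 17518 in KO414, against 179 of 17803 in WT.

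**Figure D1:**
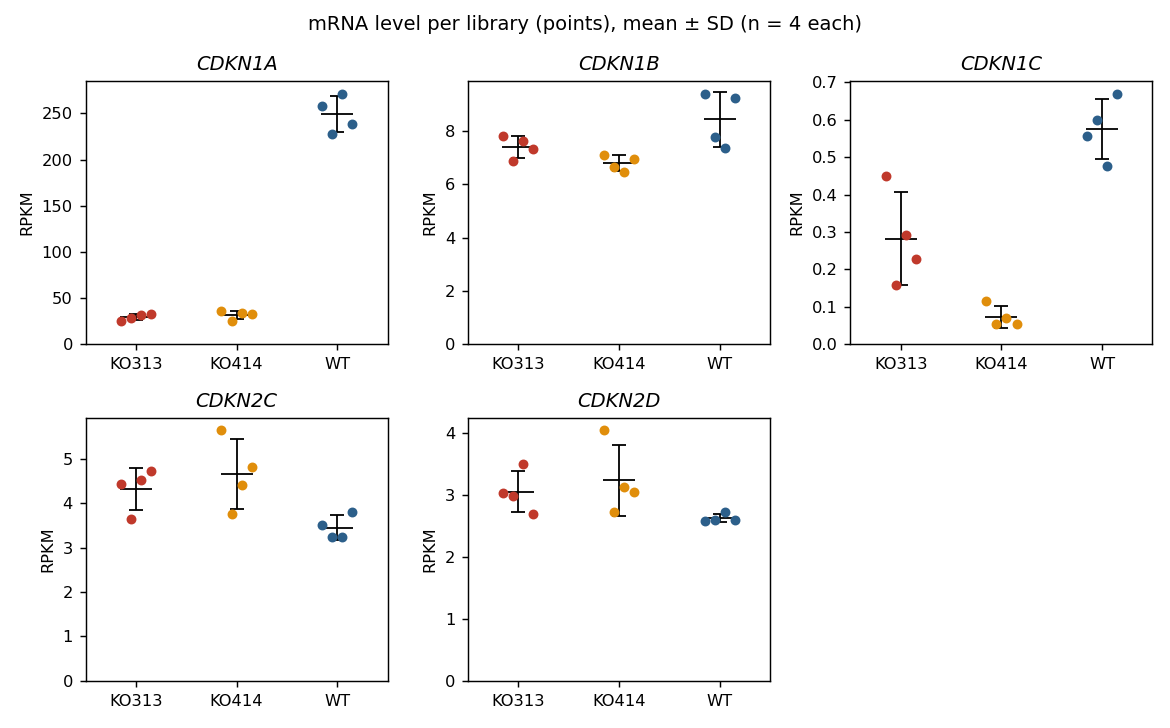
RPKM (vertical axes, each from 0) of the 5 inhibitor genes above 0 in the 4 libraries of KO313, KO414 and WT. Points are libraries and bars are the mean ± SD (n = 4 each). CDKN1A lies between 25.4 and 35.6 RPKM in both clones and between 228 and 272 RPKM in WT, whereas the groups lie close together for CDKN1B, CDKN2C and CDKN2D.

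The promoters of CDKN1A and CDKN1B, the CIP/KIP genes that fell in the main test, are shown. These genes share the direction of change but not its size, and p53 is known to act on CDKN1A through DNA. The sequences are the 250 bases before the RefSeq transcription start in build GRCh38.p14, on the plus strand at chr6:36678464-36678713 for CDKN1A and chr12:12717118-12717367 for CDKN1B, and they are reference sequence, not read from these cells. Capitals mark the GC box GGGCGG and the CCAAT box CCAAT on either strand, including 2 GC boxes of CDKN1A that overlap by 1 base.
CDKN1A: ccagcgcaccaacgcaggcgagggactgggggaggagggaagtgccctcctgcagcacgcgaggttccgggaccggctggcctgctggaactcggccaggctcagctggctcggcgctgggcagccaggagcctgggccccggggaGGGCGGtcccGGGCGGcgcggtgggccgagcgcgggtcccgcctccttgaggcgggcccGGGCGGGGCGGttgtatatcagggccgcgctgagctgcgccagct
CDKN1B: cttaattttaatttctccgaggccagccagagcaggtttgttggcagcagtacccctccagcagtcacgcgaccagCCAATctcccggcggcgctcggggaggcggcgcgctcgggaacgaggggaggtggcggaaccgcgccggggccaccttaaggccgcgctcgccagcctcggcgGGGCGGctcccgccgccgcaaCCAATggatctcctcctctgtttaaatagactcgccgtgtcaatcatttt
CDKN1A held 4 GC boxes and no CCAAT box, and CDKN1B held 1 GC box and 2 CCAAT boxes. Over 35116 RefSeq promoter windows of this length, 42.6% held a GC box and 32.0% a CCAAT box. The TATA box TATAAA, found in 10.7% of the windows, was in neither, and neither was the p53 half-site consensus, found in 5.57%. The known p53 response elements of CDKN1A lie further upstream, outside this window. Windows were matched for 6 of the 7 inhibitor genes, all but CDKN1C, 9 windows in all. None of the 9 held a p53 half-site match or the exact string TATAAA on either strand. Variants of the TATA box were not searched for, so a promoter without one is not shown.

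CDKN1B encodes p27, which holds CDK2 complexes inactive in resting cells and is controlled largely through its degradation. It was the second most abundant inhibitor mRNA. Its level was 7.81, 6.86, 7.64 and 7.33 RPKM in KO313 and 7.11, 6.67, 6.46 and 6.94 RPKM in KO414, against 9.41, 7.79, 7.35 and 9.23 RPKM in WT. Of the 8 KO libraries, 6 lay below the lowest WT library, and the groups overlapped because WT replicates 2 and 3 were close to the clones. The log2 change over all p53 KO libraries was -0.23 ± 0.07 (SE, 95% interval -0.38 to -0.08, limma, adjusted p = 0.0253), a 1.19-fold lower mean. This call rested on the 2 high WT libraries, since the adjusted p was 0.103 without WT replicate 1 and 0.103 without WT replicate 4.

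CDKN1C encodes p57, an imprinted CIP/KIP gene that is known for its role in embryonic growth and differentiation. It was the lowest of the measurable inhibitors, and its values stood apart in all 3 groups of libraries. The difference between the clones did not pass in 5 of the 8 fits that left out a library. Its level was 0.450, 0.159, 0.291 and 0.229 RPKM in KO313 and 0.115, 0.0529, 0.0706 and 0.0529 RPKM in KO414, against 0.556, 0.600, 0.476 and 0.670 RPKM in WT. No group overlapped another, with KO414 lowest and WT highest. Among the genes past the filter, a set without CDKN1C, 13.8% had all KO313 libraries below WT and 14.0% had all KO414 libraries below WT. The share with KO414 wholly below KO313 is not given here. These levels amounted to whole numbers of 18 to 51 in KO313 and 6 to 13 in KO414, against 54 to 76 in WT, after division by a gene length and library total, and these numbers were probably scaled between libraries, so they were not used as read counts.

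CDKN1C failed the filter because 3 WT libraries reached 0.5 RPKM and 4 were needed. An exact two-sided permutation test of the difference in mean log2(RPKM + 0.5) gave p = 0.00202 for the 8 p53 KO against the 4 WT libraries, the smallest p that 495 splits can give. Fitted with limma across the 18698 genes above 0 without the filter, its log2 change was -0.69 ± 0.14 (SE, adjusted p = 0.00353), where 11.9% of the genes fell. The ratio of mean RPKM was 3.24-fold lower in p53 KO. The pseudocount of 0.5 is as large as the WT level itself, so the change on the log2 scale understates this ratio, and with a pseudocount of 0.1 the log2 change was -1.42.

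CDKN2C encodes p18, an INK4 protein expressed in many tissues and known as a target of E2F factors. It rose modestly without p53. Its level was 4.42, 3.64, 4.52 and 4.72 RPKM in KO313 and 5.64, 3.76, 4.41 and 4.80 RPKM in KO414, against 3.51, 3.24, 3.24 and 3.81 RPKM in WT. Of the 8 KO libraries, 6 lay above the highest WT library, and replicate 2 of each clone fell within the WT range. The log2 change was 0.33 ± 0.09 (SE, 95% interval 0.13 to 0.53, limma, adjusted p = 0.0156), a ratio of means of 1.30. Without WT replicate 2 the adjusted p was 0.0513.

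CDKN2D encodes p19, the other INK4 protein with a measurable transcript. Its level was 3.03, 2.98, 3.50 and 2.70 RPKM in KO313 and 4.05, 2.73, 3.13 and 3.05 RPKM in KO414, against 2.58, 2.59, 2.73 and 2.61 RPKM in WT. In 6 of 8 KO libraries it was above the highest WT library. The log2 change of 0.21 ± 0.08 did not pass (SE, 95% interval 0.03 to 0.39, limma, adjusted p = 0.0719), and its ratio of means was 1.20. The call depended on single libraries: the adjusted p was 0.0493 without KO313 replicate 4, 0.0458 without KO414 replicate 1 and 0.0482 without KO414 replicate 2. KO414 replicate 1, the library with the highest RPKM sum, was also the highest of all libraries for CDKN2C and CDKN2D and the highest KO library for CDKN1A.

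CDKN2A, which encodes p16 and ARF, and CDKN2B, which encodes p15, were listed at 0 in all 12 libraries. No fold change or test was therefore made. MCF10A cells are known to have lost the region of chromosome 9 that holds both genes, although their DNA was not examined here. MTAP, the next gene on one side, was at 0 in 5 libraries and reached at most 0.0170 RPKM in p53 KO and 0.0212 RPKM in WT. MTAP encodes an enzyme of the methionine salvage pathway and is usually expressed in all cells. Beyond it, IFNE was at 0.109 to 0.157 RPKM in p53 KO, against 0.0242 to 0.0847 RPKM in WT. On the other side DMRTA1 was at 0.180 to 0.366 RPKM in p53 KO and 0.200 to 0.320 RPKM in WT, and ELAVL2 at 3.06 to 4.70 RPKM in p53 KO and 3.42 to 3.79 RPKM in WT. The antisense transcript CDKN2B-AS1 averaged 0.00829 RPKM in p53 KO and 0.0199 RPKM in WT.

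**Figure D2:**
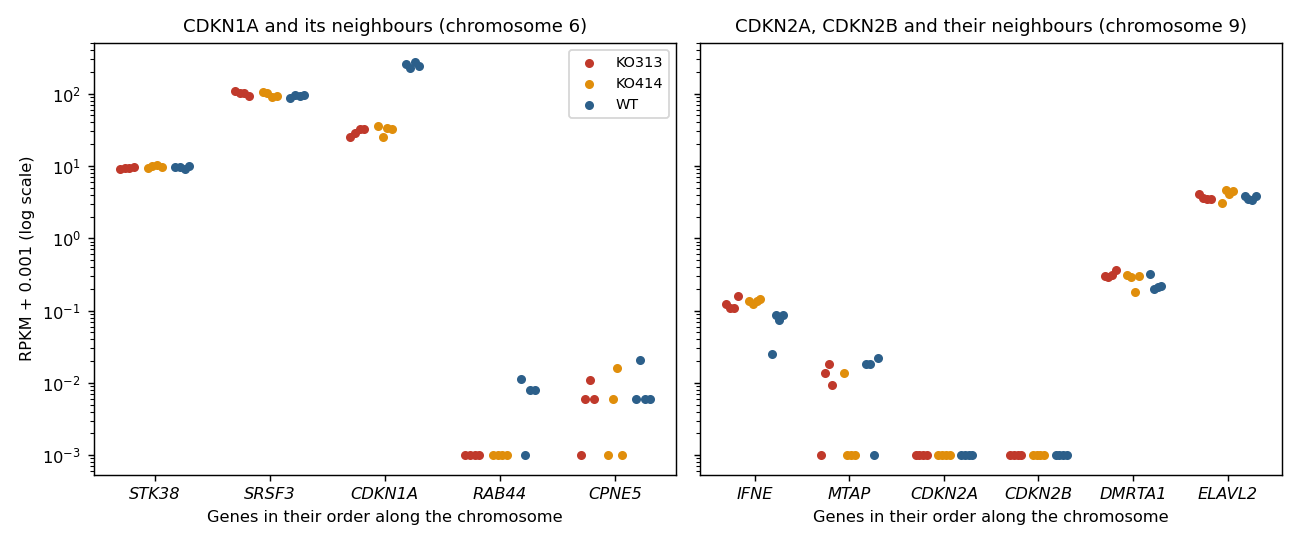
RPKM + 0.001 on a log axis for CDKN1A with 2 neighbours on each side (left) and for CDKN2A and CDKN2B with 2 neighbours on each side (right), in chromosome order and not to scale. Points are the libraries of KO313, KO414 and WT, and points at 0.001 are listed at 0. CDKN1A stands lower in the clones while SRSF3 and STK38 lie near the same height in every group, and CDKN2A and CDKN2B lie at 0 throughout.

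Genes next to the inhibitors were examined to see whether a change reached beyond the gene itself. Of 24 protein-coding neighbours, 2 on each side of each inhibitor gene, 12 passed the filter and 2 passed the test, both higher and both beside CDKN2D on chromosome 19. That is below the 29.6% of all tested genes that passed and near the 15.6% that rose. KRI1, a ribosome biogenesis factor, averaged 11.7 ± 1.54 RPKM in p53 KO and 9.14 ± 0.41 RPKM in WT (SD, n = 8 and 4, limma, adjusted p = 0.0110). SLC44A2, a choline transporter, averaged 20.9 ± 1.15 RPKM in p53 KO and 17.7 ± 0.83 RPKM in WT (adjusted p = 0.00356). Beside CDKN1A, SRSF3 averaged 99.5 RPKM in p53 KO and 93.3 RPKM in WT and STK38 9.62 RPKM in p53 KO and 9.56 RPKM in WT, and neither passed. RAB44 and CPNE5 on the other side of CDKN1A reached at most 0.0149 RPKM in p53 KO and 0.0199 RPKM in WT. No tested neighbour passed a fold change of 2, and neighbours under the filter could not pass. Beside CDKN1C, SLC22A18 was under the filter and averaged 0.316 RPKM in KO313 and 0.185 RPKM in KO414, against 0.386 RPKM in WT. PHLDA2, the next gene on that side, averaged 36.1 RPKM in p53 KO and 36.6 RPKM in WT and did not pass. On the other side KCNQ1 reached at most 0.0144 RPKM and TRPM5 at most 0.0170 RPKM.

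Set against each other per gene length, the inhibitors kept one order in the means of every group: CDKN1A, then CDKN1B, CDKN2C, CDKN2D and CDKN1C, with CDKN2A and CDKN2B at 0. CDKN2C and CDKN2D, neighbours in that order, had overlapping ranges in the KO libraries but not in WT. The study describes its RNA-seq as biased to the 3′ end of transcripts, and how far this bears on levels between genes was not tested. What differed was the make-up of the total. The 7 genes summed to 45.7 ± 4.61 RPKM in p53 KO (SD, n = 8) and to 264 ± 19.3 RPKM in WT (n = 4). CDKN1A made up 67.2% ± 2.59 of that sum in p53 KO and 94.3% ± 0.66 in WT.

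Without CDKN1A, the other inhibitors summed to nearly the same level, 14.9 ± 1.25 RPKM in p53 KO and 15.1 ± 1.27 RPKM in WT. The CIP/KIP sum was 38.0 ± 3.79 RPKM in p53 KO and 258 ± 19.3 RPKM in WT. The INK4 sum was 7.63 ± 0.99 RPKM in p53 KO and 6.08 ± 0.25 RPKM in WT, which was 16.7% ± 1.06 of all inhibitor RPKM in p53 KO and 2.31% ± 0.19 in WT. The ratio of CDKN1A to CDKN1B, 3.27 to 5.26 in the p53 KO libraries and 25.8 to 36.9 in the WT libraries, did not overlap between the groups. The ratio of CDKN2C to CDKN2D was 1.43 ± 0.17 in p53 KO and 1.31 ± 0.12 in WT, with overlapping ranges. These sums and ratios are descriptions of the values above and were not tested.

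**Figure D3:**
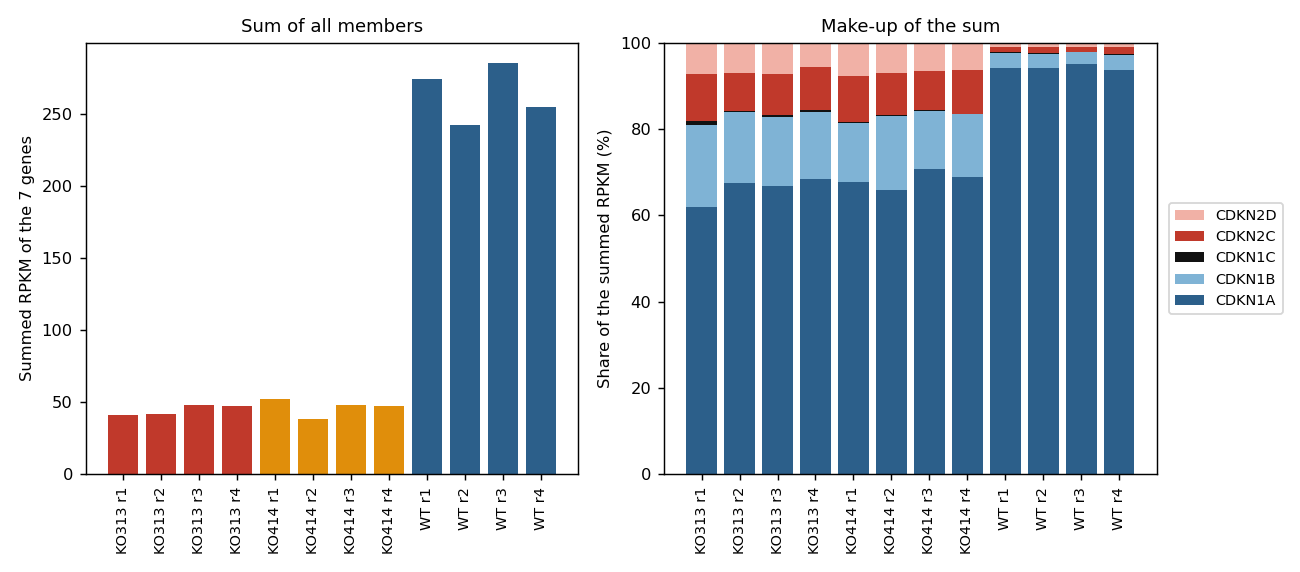
Left, summed RPKM of the 7 inhibitor genes in each library of KO313, KO414 and WT (r1 to r4 are the replicates). Right, the share of that sum from each gene in percent, without CDKN2A and CDKN2B, which are at 0. The KO bars reach 38.6 to 52.6 RPKM and the WT bars 242 to 285 RPKM, and CDKN1A fills 61.9% to 70.7% of a KO bar and 93.6% to 95.2% of a WT bar.

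The clones were then compared one at a time, in a model of 3 groups. Both comparisons use the same 4 WT libraries and are not independent. In KO313, 1 of the 4 genes tested passed (CDKN1A), against 21.5% of all genes. In KO414, 3 of 4 passed (CDKN1A, CDKN1B and CDKN2C), against 29.8% of all genes. CDKN1A had a log2 change of -3.06 ± 0.11 in KO313 (SE, limma, adjusted p = 5.78e-10) and -2.95 ± 0.11 in KO414 (adjusted p = 6.66e-10), with a mean 8.43-fold lower in KO313 and 7.80-fold lower in KO414. It passed a fold change of 2 in both, as 1.22% of all genes did in the lower direction in KO313 and 1.58% in KO414.

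CDKN1B changed by -0.17 ± 0.08 in KO313 (SE, limma, adjusted p = 0.140, or 0.0454 without WT replicate 3) and by -0.29 ± 0.08 in KO414 (adjusted p = 0.0140). Every KO414 library was below every WT library, as for 14.0% of all genes, whereas KO313 overlapped WT. For KO313 against WT such a gap in the lower direction was seen in 13.8% of all genes, CDKN1A among them. CDKN2C changed by 0.29 ± 0.11 in KO313 (adjusted p = 0.0765, or 0.0411 without KO313 replicate 2 and 0.0266 with only the KO313 and WT libraries in the fit) and by 0.37 ± 0.11 in KO414 (adjusted p = 0.0194, or 0.0527 without KO414 replicate 4 and 0.0520 without WT replicate 2). CDKN2D changed by 0.18 ± 0.10 in KO313 (adjusted p = 0.225) and by 0.25 ± 0.10 in KO414 (adjusted p = 0.0771, or 0.0295 without KO414 replicate 2). For all of these genes both clones had the same direction.

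A gene that passed in one clone alone was not shown to differ between clones. When KO414 was compared with KO313 directly, 0 of 4 inhibitor genes passed in limma, where 3.36% of all genes did, and 0 had an unadjusted p under 0.05. The difference was 0.11 for CDKN1A (95% interval -0.13 to 0.34, adjusted p = 0.893) and -0.12 for CDKN1B (-0.28 to 0.05, adjusted p = 0.722). It was 0.09 for CDKN2C (-0.14 to 0.32, adjusted p = 0.924) and 0.07 for CDKN2D (-0.15 to 0.28, adjusted p = 0.946). The intervals leave room for differences between the clones of up to about the size of the changes of CDKN1B, CDKN2C and CDKN2D themselves.

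CDKN1C, under the filter, was the inhibitor on which the clones stood apart. Its mean was 0.0727 ± 0.0291 RPKM in KO414 and 0.282 ± 0.124 RPKM in KO313 (SD, n = 4 each), against 0.576 ± 0.0812 RPKM in WT. The exact permutation test gave p = 0.0286 for KO414 against KO313, for KO313 against WT and for KO414 against WT. This is the smallest p that 4 against 4 libraries can give, and any gene without overlap gets it. In the limma fit without the filter the log2 difference of KO414 from KO313 was -0.44 (95% interval -0.65 to -0.22, adjusted p = 0.0313), where 2.47% of genes were lower. That adjusted p was 0.0871 without KO313 replicate 3, 0.0555 without KO313 replicate 4, 0.0835 without KO414 replicate 2, 0.0830 without KO414 replicate 3 and 0.0935 without KO414 replicate 4. Against WT the log2 change was -0.47 in KO313 (adjusted p = 0.00672), where 9.37% of genes fell, and -0.91 in KO414 (adjusted p = 5.77e-05), where 12.7% of genes fell.

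**Figure D4:**
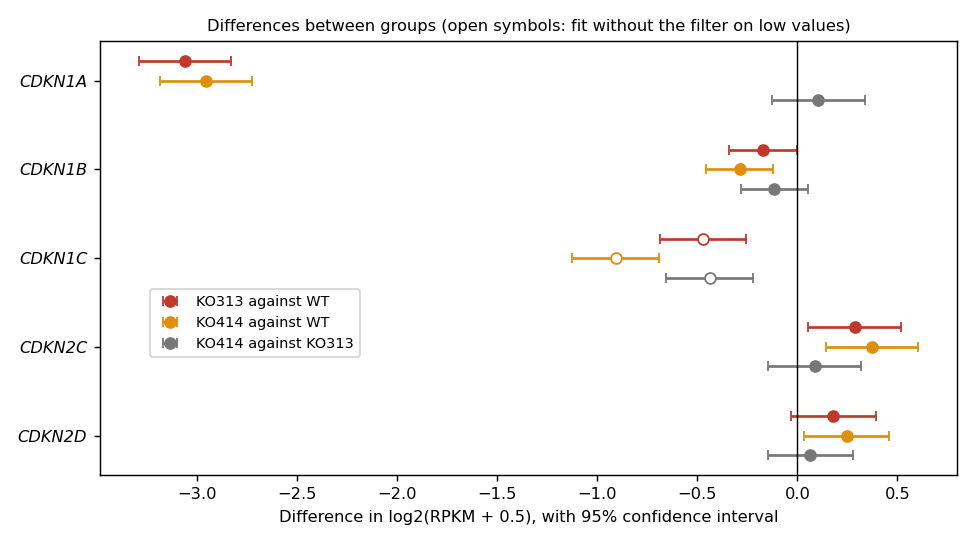
Difference in log2(RPKM + 0.5) (horizontal axis) with its 95% confidence interval for KO313 against WT, KO414 against WT and KO414 against KO313, by gene (rows). Open symbols are from the fit without the filter on low values. CDKN1A lies near -3 against WT in both clones, CDKN1C is the gene whose interval for KO414 against KO313 (-0.65 to -0.22) leaves out 0, and CDKN1B, CDKN2C and CDKN2D lie within 0.4 of 0.

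Genes with a profile like that of CDKN1A were sought across the 12 libraries, by the root mean square difference between log2(RPKM + 0.5) values centred on each gene's mean. The nearest protein-coding genes were BTG2 (0.12), BBC3 (0.13), LCE1B (0.20), TP53INP1 (0.25) and SULF2 (0.27), where the median of all other tested genes was 1.44. BTG2, an antiproliferative gene known as a p53 target, averaged 4.70 ± 0.80 RPKM in p53 KO and 42.0 ± 2.94 RPKM in WT (SD, n = 8 and 4). BBC3, the gene of PUMA, a protein that promotes apoptosis, averaged 0.359 ± 0.119 RPKM in p53 KO and 6.19 ± 0.62 RPKM in WT. TP53INP1, a stress-induced p53 target, averaged 0.386 ± 0.0493 RPKM in p53 KO and 8.73 ± 0.84 RPKM in WT. SULF2, an extracellular sulfatase, averaged 0.753 ± 0.247 RPKM in p53 KO and 7.95 ± 0.73 RPKM in WT. LCE1B, a cornified envelope gene, was at 0 to 0.0339 RPKM in p53 KO and at 2.73 to 3.38 RPKM in WT. None of these genes matched the level of CDKN1A, since the measure compares changes only. As that measure uses these levels, they are a description. The pseudocount of 0.5 shrinks the change of low genes, and the likeness was not computed with another one. Under the other settings, pseudocounts of 0.1 and 1 among them, the log2 change in p53 KO ran from -3.02 to -2.98 for CDKN1A. It ran from -3.15 to -2.93 for BTG2, -3.82 to -2.40 for BBC3 and -4.89 to -2.02 for LCE1B. For TP53INP1 the range was -4.19 to -2.81 and for SULF2 -3.29 to -2.36. Mean RPKM was 8.94-fold lower in p53 KO for BTG2, 10.6-fold for SULF2 and 17.2-fold for BBC3. It was 22.6-fold lower for TP53INP1 and 366-fold lower for LCE1B, against 8.10-fold for CDKN1A.

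The partners on which the inhibitors act were counted from fixed lists, in p53 KO against WT. Among 11 cyclins and cyclin-dependent kinases, 10 were tested, 5 rose (CCND3, CDK4, CCNE1, CCNE2 and CDK2), 1 fell (CCNA1) and 4 did not pass. Of all genes tested, 15.6% rose and 14.0% fell. CCND2 was under the filter. Their median log2 change was 0.20, beside 0.01 for all genes tested. The E-type cyclins and their kinase, which CIP/KIP proteins inhibit, were among those that rose. CCNE1 averaged 14.9 ± 1.58 RPKM in p53 KO and 9.90 ± 0.46 RPKM in WT (SD, n = 8 and 4, limma, adjusted p = 9.83e-05). CCNE2 averaged 14.0 ± 1.07 RPKM in p53 KO and 10.5 ± 1.10 RPKM in WT (adjusted p = 0.000810), and CDK2 averaged 31.8 ± 1.27 RPKM in p53 KO and 26.6 ± 0.75 RPKM in WT (adjusted p = 0.000350). All 8 KO libraries were above the WT range for these 3 genes. They are among the genes of the list with the smallest p, and the share of all tested genes with such a gap is not given here. CCNA1, a cyclin A known mainly from the germ line, averaged 1.19 ± 0.22 RPKM in p53 KO and 1.97 ± 0.25 RPKM in WT (adjusted p = 0.00148). None of the tested genes of the list passed a fold change of 2.

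Downstream of the kinases stand the pocket proteins and the DREAM complex, which hold cell cycle genes silent until they are phosphorylated. Of 11 such genes, all tested, 2 rose (E2F4 and TFDP1), 1 fell (RBL2) and 8 did not pass, with a median log2 change of 0.09. These counts are near the 15.6% of all tested genes that rose and the 14.0% that fell. E2F4, the repressive E2F of the complex, averaged 33.0 ± 1.87 RPKM in p53 KO and 26.0 ± 2.23 RPKM in WT (SD, n = 8 and 4, limma, adjusted p = 0.000592). Its dimer partner TFDP1 averaged 93.7 ± 3.54 RPKM in p53 KO and 82.6 ± 1.64 RPKM in WT (adjusted p = 0.00318). RBL2, which encodes the pocket protein p130, averaged 5.16 ± 0.52 RPKM in p53 KO and 6.40 ± 0.25 RPKM in WT (adjusted p = 0.00942). RB1, the retinoblastoma gene, averaged 15.0 ± 1.80 RPKM in p53 KO and 17.6 ± 1.35 RPKM in WT and did not pass (adjusted p = 0.0773, or 0.0309 without KO414 replicate 1, where 2 genes of the list were lower).

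Of 13 genes for the ubiquitin ligases and other proteins that degrade the inhibitors, all tested, 3 rose (DTL, CDC20 and PSME3), 1 fell (SKP1) and 9 did not pass, with a median log2 change of 0.05. The 4 genes that passed are near the share of all tested genes that passed, 29.6%. DTL, the substrate receptor that directs p21 to the CRL4 ligase, averaged 34.2 ± 2.97 RPKM in p53 KO and 24.3 ± 0.13 RPKM in WT (SD, n = 8 and 4, limma, adjusted p = 7.41e-05). CDC20, an activator of the anaphase-promoting complex, averaged 83.9 ± 6.88 RPKM in p53 KO and 65.2 ± 5.22 RPKM in WT (adjusted p = 0.00146). PSME3, a proteasome activator, averaged 84.9 ± 3.67 RPKM in p53 KO and 75.1 ± 2.49 RPKM in WT (adjusted p = 0.00670). SKP1, the adaptor of the SCF ligases, averaged 135 ± 6.81 RPKM in p53 KO and 153 ± 10.0 RPKM in WT (adjusted p = 0.0188, or 0.0647 without WT replicate 1 and 0.0820 without WT replicate 4, where 0 genes of the list were lower).

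Transcription and chromatin factors known to act on the inhibitor genes were a list of 21, of which 20 were tested, 6 rose (TP63, SMAD3, MYC, BMI1, EZH2 and ETS1), 3 fell (FOXO1, FOXO4 and HES1) and 11 did not pass, with a median log2 change of 0.04. Of all genes tested, 15.6% rose and 14.0% fell. FOXO1, a factor that can activate CDKN1A and CDKN1B, averaged 1.59 ± 0.17 RPKM in p53 KO and 2.73 ± 0.18 RPKM in WT (SD, n = 8 and 4, limma, adjusted p = 1.55e-05). ETS1, a factor known to activate CDKN2A, averaged 19.9 ± 1.88 RPKM in p53 KO and 13.0 ± 1.06 RPKM in WT (adjusted p = 7.08e-05). TP63, the p53 relative of basal epithelium, averaged 8.95 ± 1.12 RPKM in p53 KO and 6.30 ± 0.41 RPKM in WT (adjusted p = 0.00168), and SMAD3, which carries TGF-beta signals, averaged 6.57 ± 0.53 RPKM in p53 KO and 5.22 ± 0.28 RPKM in WT (adjusted p = 0.00293). TP73, another p53 relative, was under the filter at 0.0504 to 0.332 RPKM in p53 KO and 0.469 to 0.753 RPKM in WT. No tested gene of these 4 lists passed a fold change of 2, or passed between KO414 and KO313. TP73 was not tested, so it could not pass. Its mean was 3.12-fold lower in p53 KO than in WT, 7.31-fold lower in KO313 and 1.99-fold lower in KO414. TP73 averaged 0.0820 RPKM in KO313 and 0.302 RPKM in KO414, and this difference between the clones was not tested.

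Genes that share a name or a locus with the inhibitors without being inhibitors of either family did not stand out. Of the 5 found in the table, 3 were tested and 1 passed, where 29.6% of all tested genes did: CDKN2AIPNL, a relative of the ARF-binding protein gene CDKN2AIP, averaged 19.6 ± 1.22 RPKM in p53 KO and 22.0 ± 0.76 RPKM in WT (SD, n = 8 and 4, limma, adjusted p = 0.0228, or 0.0688 without WT replicate 3 and 0.0680 without WT replicate 4). CDKN2AIP averaged 6.70 ± 0.47 RPKM in p53 KO and 6.01 ± 0.25 RPKM in WT and did not pass (adjusted p = 0.0637, or 0.0328 without KO414 replicate 1). CDKN3, a phosphatase of CDK2, averaged 26.9 ± 1.14 RPKM in p53 KO and 24.9 ± 1.98 RPKM in WT and did not pass (adjusted p = 0.108, or 0.0313 without WT replicate 4). The antisense transcripts CDKN2B-AS1 and KCNQ1OT1 were under the filter.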

How the data were processed

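The authors deposited 1 table of RPKM values with 22328 entries for 12 libraries, of which 4 repeated symbols were left out. The submitters' processing notes name Trimmomatic and hg19. For the aligner, the counting program, the annotation and the use of strand, the entry is: not given in the sources used here. Antisense and overlapping genes may therefore share reads. The labels name an mRNA kit and the study's methods ribosomal RNA removal. The deposited RPKM values were whole numbers over a length and library totals that differ by 0.123% (tolerance 0.001). These numbers were not taken as read counts, and no count test was run. In all 12 libraries 3626 genes are listed at 0.

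Genes with at least 0.5 RPKM in at least 4 libraries (12215) were tested with limma 3.58.1 (R 4.3.3, intensity trend) on log2(RPKM + 0.5), two-sided, with Benjamini-Hochberg adjustment over all genes tested. The 8 p53 KO libraries were compared with WT in a 2-group model, as the study combined its clones, and single clones in a 3-group model. This log2 scale understates the change of low genes, and folds beside means are ratios of mean RPKM. The fit was checked on simulated data.

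The inhibitors and lists were chosen with earlier results of these data known. Genes named were the 7 inhibitors, up to 4 genes of each list with the smallest p, 2 neighbours a side and the 5 genes nearest in profile to CDKN1A. A further gene of the rule is not reported here. Other list genes are named with their counts, and values of TP73 and CDKN2B-AS1 were added after they were seen. Alternatives were pseudocounts of 0.1 and 1, no filter, quantile normalization, a replicate block, other models and each library left out. Promoters and gene order came from RefSeq (GRCh38.p14). Tables and figures were made in Python 3.11.15 (pandas 2.3.3, numpy 2.4.6, matplotlib 3.10.9).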

Additional observations from a re-analysis of the deposited data

Results flagged for a closer look

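For CDKN1C the change against WT differed between the clones at the threshold used, by the direct comparison of KO414 with KO313. The log2 change in KO414 minus that in KO313 was -0.44 (limma without the filter, adjusted p = 0.0313), with 0.0727 ± 0.0291 RPKM in KO414 and 0.282 ± 0.124 RPKM in KO313 (SD, n = 4 each). It did not pass with a replicate block (adjusted p = 0.0505) or in 5 of the 8 fits that left out a library (0.0555 to 0.0935). Each line is 1 clone, so what accounts for this difference cannot be told apart from other differences between the clones. No library lay far enough from its 3 fellows to be set apart in any of the 15 sets of 4 libraries examined (Dixon's ratio of gap to range).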

How the results depend on the processing

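CDKN1A kept its direction and its call in every alternative run, with a log2 change between -3.05 and -2.96 when each library was left out of p53 KO against WT. The count of inhibitor genes passing in KO313 against WT, 1 of 4, was 2 with no filter on low values, where CDKN1C entered, and 2 with a replicate block and 2 with only the libraries of both groups compared, where CDKN2C passed (adjusted p = 0.0274 and 0.0266). It ranged from 1 to 2 when single libraries were left out. The counts of 3 in p53 KO and in KO414 against WT were 4 each with no filter, and ranged from 2 to 4 when single libraries were left out, with 2 in p53 KO without WT replicate 1, 2 or 4 and 2 in KO414 without KO414 replicate 4 or WT replicate 2. The count in KO414 against KO313 was 1 with no filter, where CDKN1C entered. Between KO414 and KO313 the adjusted p of CDKN1C was 0.0505 with a replicate block, against 0.0313. Repeat numbers are shared between groups, but the deviations of same-numbered libraries correlated between -0.193 and 0.514, and over 0.1 in 6 of 12 pairs only, so the numbers were not taken to pair the libraries, although 8 of 12 libraries correlated best with one of their own number, which is a hint of a shared effect. Of 416 values under other settings, 409 kept their direction and side of the threshold or, for a count of genes, stayed within 1.5 times the main count, while 1 lost and 2 gained a call, 4 counts moved further and 0 changed direction; with libraries left out 748 of 780 did so, with 14 lost, 9 gained, 9 counts moved further and 0 reversed. Alternatives that joined no filter with another choice for CDKN1C, and all those for list genes, neighbours and genes of similar profile, were chosen after seeing the data. Levels near 0, as of CDKN1C and MTAP, rest on few reads of unknown number, and a value of 0 gives no upper limit here.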
